A study of Mus musculus with 44 samples.

Results

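Nuclei of the whole liver were compared between 3 male mice with advanced steatohepatitis and 4 male control mice. The libraries were taken by their labels alone, as the whole liver libraries of the advanced and control groups of the FPC diet study, and they are 7 of the 44 libraries of the series. The advanced mice had eaten the FPC diet, which induces non-alcoholic steatohepatitis (NASH), for 20 weeks, and the control mice had eaten a low fat diet for the same 20 weeks. All were HEP-INTACT mice, whose hepatocyte nuclei are tagged so that they can be pulled down, and the labels used here do not name the promoter that drives the tag, the strain or the age. Whole liver nuclei are the nuclei of all liver cells, before that isolation. Mice on the FPC diet had been sorted by liver histology into an advanced group, with fibrosis, and a mild group, with steatosis and inflammation but without marked fibrosis, so the advanced group was not randomised and genes of scar tissue bear on how it was chosen. Set beside these livers are the 4 mild whole livers of the same diet, the hepatocyte nuclei of the same 7 mice, and whole livers of 3 advanced and 4 control mice of a 7-week study with CDAHFD, a choline-deficient high-fat diet.

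In a healthy liver most nuclei belong to hepatocytes, which make plasma proteins, bile acids, glucose and cholesterol and break down foreign compounds. The sinusoids hold fenestrated endothelium, resident macrophages called Kupffer cells, and stellate cells that store vitamin A. In steatohepatitis monocyte-derived macrophages enter the tissue, stellate cells and portal fibroblasts deposit collagen, and cells of the bile ducts expand. In bulk nuclei, more nuclei of a type and more RNA per nucleus cannot be told apart, nor can fewer nuclei and less RNA per nucleus.

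The deposited table gives read counts per gene, with totals of 21340895 to 29140253 in the advanced libraries and 16825945 to 31969887 in the control libraries. Total nuclear RNA was sequenced without selection for poly-adenylated RNA, and for 94.7% of the 13147 genes for which a counted length was deposited it equals the gene's whole length, so unspliced transcripts enter the values. Levels are CPM, the usual depth-scaled counts with TMM factors applied, given for advanced mice 1, 2 and 3 and for control mice 1, 2, 3 and 4, numbered within each group by their labels and always in this order. CPM is not divided by gene length, so levels are compared only within a gene. Changes are log2 changes, advanced minus control, with their standard error (SE), and adjusted p-values are from edgeR's quasi-likelihood test with Benjamini-Hochberg adjustment over 14129 genes. At an adjusted p under 0.05, 31.3% of these genes were higher (4428) and 28.0% were lower (3954) in advanced livers, and 3199 and 1264 of them changed at least 2-fold. Scaling by library totals alone moved the median of all genes by 0.44 on the log2 scale and gave 7267 higher and 1532 lower genes, so small changes below are relative to the TMM scaling. The first principal component held 72.1% of the variance of the FPC whole liver libraries, and its scores were 58.5 to 69.7 in advanced, 9.9 to 16.4 in mild and -64.9 to -57.7 in control livers.

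Defining markers of each expected cell type were present in the control livers. All 18 sinusoidal and all 16 stellate cell markers also had enough reads to be tested in hepatocyte nuclei. Their presence therefore cannot tell whole liver nuclei from hepatocyte nuclei. Of 20 hepatocyte markers 15 fell and 0 rose, with a median log2 change of -1.22 against 0.0 over all genes tested. Their summed level was 8180 to 11500 CPM in advanced livers, against 22500 to 33700 CPM in control livers. Of 4 tested mesothelial markers 2 rose. The median log2 change was 1.23 for 16 stellate cell markers, 3.56 for 15 markers of recruited macrophages and 3.15 for 13 cholangiocyte markers. All marker and pathway lists were drawn up with earlier results of these data known, and their counts are descriptions.

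**Figure D1:**
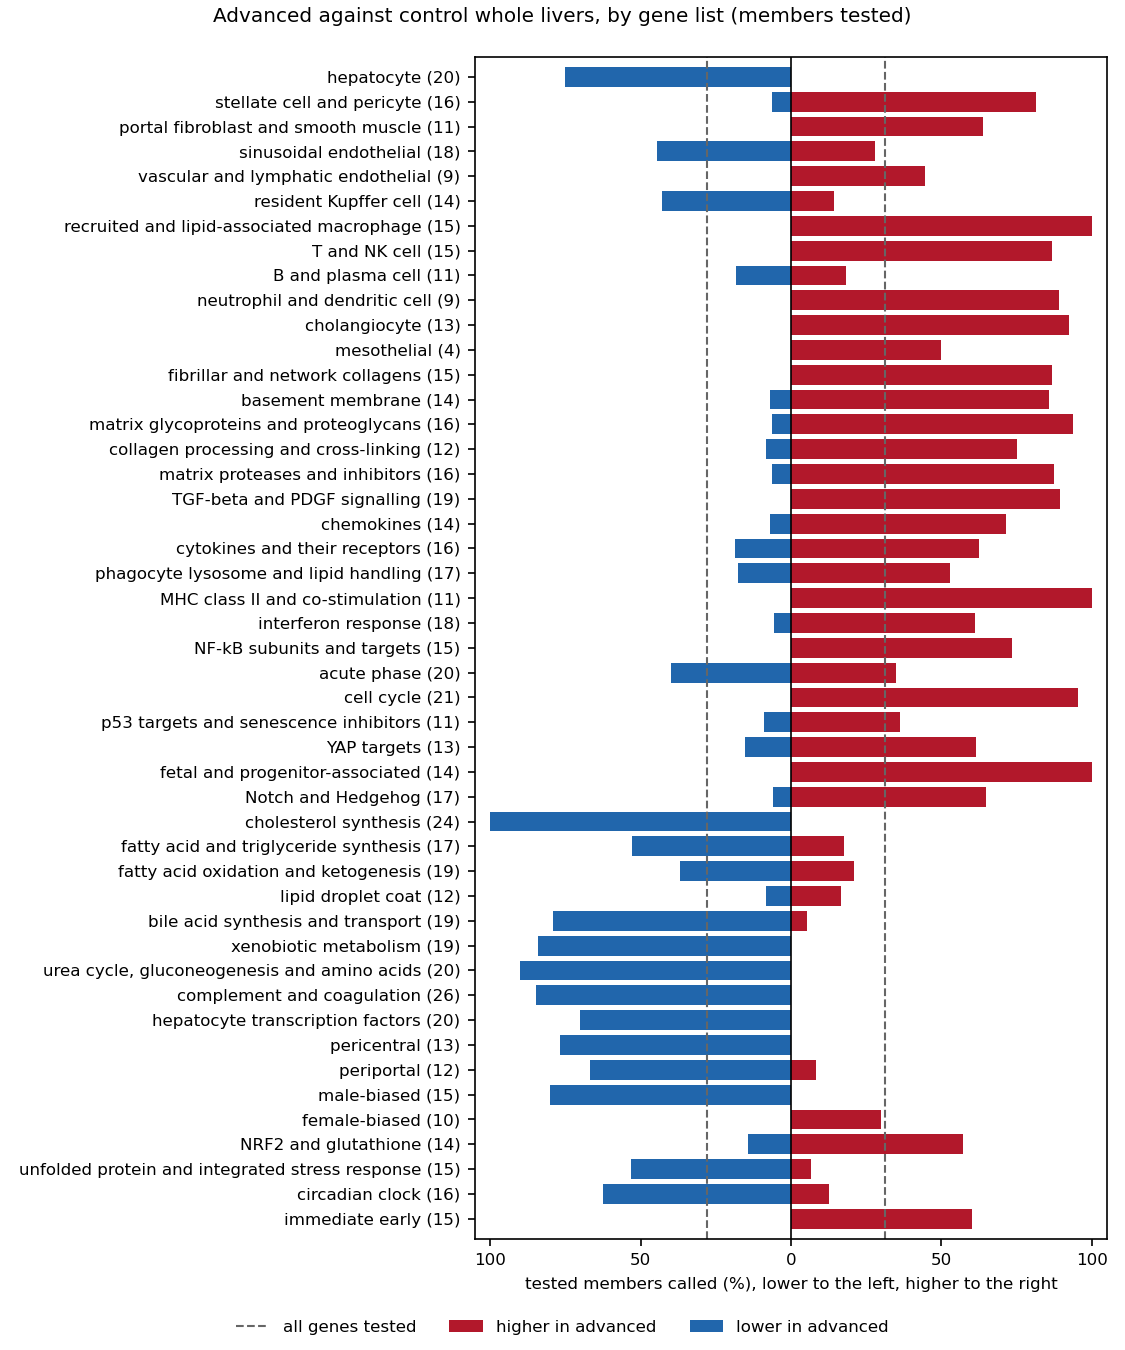
For each gene list, bars show the percent of tested members that were higher in advanced livers (right of 0) and lower (left of 0) at an adjusted p under 0.05; dashed lines mark the same shares over all 14129 genes, 31.3% higher and 28.0% lower. Lists of recruited macrophages, MHC class II and fetal genes lie wholly on the higher side, and all 24 cholesterol synthesis genes lie on the lower side.

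Markers of recruited macrophages rose, and those of resident macrophages were mixed. All 15 markers of recruited and lipid-associated macrophages rose, while of 14 markers of resident Kupffer cells 6 fell and 2 rose, with a median of -0.59 (4 and 3 under library totals). The 42.9% that fell stand against 28.0% of all genes tested. Gpnmb, a membrane glycoprotein of lipid-laden macrophages, had 47.6, 32.0 and 38.7 CPM in advanced livers, against 0.0501, 0.680, 0.316 and 0.361 CPM in control livers (log2 change 6.71 ± 0.34 SE, adjusted p = 1.4e-08). Trem2, a lipid-sensing receptor, had 9.08, 8.46 and 6.75 CPM in advanced livers, against 0.150, 0.215, 0.355 and 0.144 CPM in control livers (5.12 ± 0.31, adjusted p = 6.1e-08). Neither gene overlapped between the groups, and the 3 advanced mice lay within 1.5-fold of each other for both. Itgax, an integrin of dendritic cells and inflammatory macrophages (4.87 ± 0.14), Cx3cr1, the fractalkine receptor (5.08 ± 0.22), and Mmp12, macrophage elastase (5.69 ± 0.31), rose alongside. Cd163, the scavenger receptor for haemoglobin bound to haptoglobin and a marker of resident macrophages, had 0.422, 0.573 and 0.385 CPM in advanced livers, against 22.9, 21.2, 15.5 and 22.4 CPM in control livers (-5.46 ± 0.44, adjusted p = 6.6e-07). All 3 advanced livers lay far under every control liver. Timd4, a receptor for dying cells (-2.77 ± 0.46, adjusted p = 0.00028), and Clec4f, a lectin of Kupffer cells (-1.45 ± 0.37, adjusted p = 0.0054), fell as well, whereas Adgre1, which encodes F4/80 (1.54 ± 0.25), and Csf1r, the receptor for macrophage colony-stimulating factor (1.41 ± 0.15), rose. Marco, Vsig4 and Cd5l, other Kupffer cell genes, did not pass the test, though Vsig4 did without advanced mouse 1 (-1.11, adjusted p = 0.0039).

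Genes of the lysosome and of lipid handling in phagocytes rose in 9 and fell in 3 of 17, and 12 rose and 0 fell under library totals. The lipoprotein lipase Lpl (3.36 ± 0.18), the proton pump subunit Atp6v0d2 (3.21 ± 0.14), the protease Ctss (2.80 ± 0.25) and the cholesterol exporter Abcg1 (2.29 ± 0.14) rose. Npc1, which moves cholesterol out of lysosomes, fell (-0.80 ± 0.14), a call lost under library totals (-0.36, adjusted p = 0.059).

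T cell genes rose. Of 15 tested T and NK cell genes 13 rose and 0 fell, with a median of 1.83, whereas of 11 B and plasma cell genes 2 rose and 2 fell, with a median of 0.01 (4 and 1 under library totals). Klrb1c, an NK cell receptor, did not pass, and Gzmb, Nkg7 and Prf1 had too few reads to be tested, so a rise of NK cell genes was not shown. Bcl11b, a transcription factor of T cells, had 15.4, 25.2 and 17.7 CPM in advanced livers, against 4.51, 5.12, 3.35 and 4.40 CPM in control livers (2.16 ± 0.22, adjusted p = 4.4e-06). Cd8a, the co-receptor of cytotoxic T cells, had 0.718, 2.63 and 1.60 CPM in advanced livers, against 0.0501, 0.143, 0.237 and 0.0721 CPM in control livers (3.57 ± 0.54, adjusted p = 0.00011). Advanced mouse 2 was the highest of the 3 advanced mice for both genes, and every advanced value lay above every control value. Pdcd1, which encodes the inhibitory receptor PD-1, had 3 reads over the 4 control libraries and 72 over the 3 advanced ones, a ratio of 24.0 after scaling with an exact 95% interval of 7.89 to 119 that covers counting error only. Jchain, the joining chain of secreted antibodies, fell (-1.40 ± 0.38, adjusted p = 0.0072), and Cd22, an inhibitory receptor of B cells, rose (1.36 ± 0.23).

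All 11 genes of MHC class II and co-stimulation rose, with a median of 2.62. Ciita, the master activator of MHC class II genes, had 94.7, 87.0 and 87.5 CPM in advanced livers, against 12.4, 10.9, 7.58 and 9.09 CPM in control livers (3.17 ± 0.21, adjusted p = 1.1e-07). H2-Eb1, a beta chain of class II, rose by a similar amount (3.10 ± 0.15), as did Cd83, a marker of activated dendritic cells (2.98 ± 0.20). Of 9 tested neutrophil and dendritic cell genes 8 rose, among them Flt3, a growth factor receptor of dendritic cell precursors (3.36 ± 0.30), and Csf3r, the granulocyte growth factor receptor (2.28 ± 0.18). Among chemokines 10 of 14 tested rose. The chemokine Cx3cl1, ligand of Cx3cr1, had 6.29, 8.09 and 5.50 CPM in advanced livers, against 0.150, 0.537, 0.237 and 0.577 CPM in control livers (4.15 ± 0.33, adjusted p = 5e-07). Ccl2, which attracts monocytes, also rose (4.19 ± 0.41), and Cxcl12 fell (-0.88 ± 0.18). Of 16 cytokine and receptor genes 10 rose and 3 fell, with Il1rn, the antagonist of interleukin-1 (4.14 ± 0.35), and Tnf (3.42 ± 0.39) among the rises and Il18 (-1.18 ± 0.17) among the falls. In the NF-kB list 11 of 15 rose, led in p by Relb (2.90 ± 0.17) and Nfkbie (2.25 ± 0.16). Interferon response genes rose in 11 of 18, with a median of 1.18, and Oas2 had the lowest p (2.16 ± 0.18). Immediate early genes rose in 9 of 15, and control mouse 4 stood above the other controls for several of them, as for Atf3, with 24.8, 32.8 and 22.7 CPM in advanced livers, against 0.651, 2.36, 0.671 and 8.80 CPM in control livers (3.22 ± 0.67, adjusted p = 0.0016).

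Genes of the scar matrix rose, with few exceptions. Of 15 fibrillar and network collagens 13 rose and 0 fell, with a median of 2.33. Col1a1, a chain of type I collagen, had 91.6, 51.1 and 40.9 CPM in advanced livers, against 2.65, 2.72, 5.05 and 4.40 CPM in control livers (4.05 ± 0.34, adjusted p = 1.1e-06). Col6a3, a chain of type VI collagen, had 223, 190 and 170 CPM in advanced livers, against 14.9, 16.5, 17.3 and 19.4 CPM in control livers (3.52 ± 0.20, adjusted p = 2.9e-08). Advanced mouse 1 was the highest advanced mouse for both, and no control value reached an advanced one. Among matrix glycoproteins and proteoglycans 15 of 16 rose. Fbn2, a fibrillin of elastic microfibrils, changed most in that list, with 25.4, 35.1 and 33.3 CPM in advanced livers, against 0.701, 0.358, 0.671 and 0.721 CPM in control livers (5.71 ± 0.24, adjusted p = 5.3e-09). Its relative Fbn1 rose less (2.17 ± 0.11). Fn1, fibronectin, which hepatocytes also secrete into plasma, was the only member of the list to fall, with 780, 786 and 620 CPM in advanced livers, against 1220, 1560, 1430 and 2050 CPM in control livers (-1.10 ± 0.18, adjusted p = 0.00016). Col18a1, the source of endostatin and the only basement membrane gene of 14 to fall, went the same way (-1.42 ± 0.34, adjusted p = 0.0035), while 12 others rose, among them Lama2, a laminin chain (3.27 ± 0.16).

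Enzymes that modify, cross-link and cut matrix rose as well. Of 12 genes of collagen processing 9 rose, including the lysyl hydroxylase Plod2 (2.97 ± 0.15) and the lysyl oxidase Loxl1 (3.29 ± 0.23), and Bmp1, which trims procollagen, fell (-1.32 ± 0.18). Of 16 matrix proteases and inhibitors 14 rose. Mmp7, matrilysin, had 8.28, 7.99 and 9.17 CPM in advanced livers and 3 reads over all 4 control libraries, a ratio of 248 with an exact 95% interval of 84.4 to 1200. Timp1, an inhibitor of matrix proteases, likewise had 3 control reads, and its ratio was 26.7. In the list of TGF-beta and PDGF signalling 17 of 19 rose and 0 fell. Integrin subunit Itgb6, which activates latent TGF-beta on epithelium, had 12.3, 18.4 and 13.3 CPM in advanced livers, against 0.150, 0.394, 0.316 and 0.289 CPM in control livers (5.61 ± 0.28, adjusted p = 1.4e-08). Growth factor Pdgfb (3.43 ± 0.15) and its receptors Pdgfrb (2.27 ± 0.12) and Pdgfra (2.83 ± 0.14) rose, and so did Ctgf, connective tissue growth factor (3.27 ± 0.39).

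Of 16 stellate cell and pericyte markers 13 rose and 1, Angptl6, fell, a call lost under library totals (-0.61, adjusted p = 0.068). The rise was unequal within the list, as Cygb, cytoglobin, had 18.3, 16.4 and 14.2 CPM in advanced livers, against 1.65, 2.22, 2.96 and 2.45 CPM in control livers (2.81 ± 0.21), while Lrat, the enzyme that esterifies vitamin A, rose by 0.92 ± 0.30 (adjusted p = 0.018). Lrat had 17.1, 7.14 and 14.8 CPM in advanced livers, against 8.91, 7.84, 6.12 and 4.47 CPM in control livers. Advanced mouse 2 lay within the control range for Lrat, and the other 2 advanced mice lay above it. The call for Lrat was lost without advanced mouse 1 (0.67, adjusted p = 0.096) and without advanced mouse 3 (0.81, adjusted p = 0.066). Of 11 markers of portal fibroblasts and smooth muscle 7 rose, among them Eln, elastin (2.71 ± 0.26), and Gli1, the transcription factor of Hedgehog signalling (1.92 ± 0.37). The smooth muscle genes Acta2 and Myh11 did not pass the test, with log2 changes of 0.78 ± 0.44 (adjusted p = 0.15) and 0.45 ± 0.28 (adjusted p = 0.19), although both passed when the 7 libraries were fitted alone (0.80, adjusted p = 0.037, and 0.47, adjusted p = 0.026) and under library totals, at 1.22 and 0.90.

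Endothelial genes had no common direction. Of 18 sinusoidal markers 5 rose and 8 fell, with a median of -0.20, but 7 rose and 1 fell under library totals. The 27.8% that rose are near the 31.3% of all genes tested, and the 44.4% that fell stand against 28.0%. Of 9 markers of other vessels 4 rose and 0 fell. Wnt2, a Wnt ligand that central sinusoidal endothelium supplies to hepatocytes, had 3.63, 1.68 and 2.4 CPM in advanced livers, against 8.26, 7.59, 6.59 and 4.54 CPM in control livers (-1.41 ± 0.27, adjusted p = 0.00075). Clec4g, a lectin of sinusoids, fell as well (-1.03 ± 0.27), though not under library totals (-0.61, adjusted p = 0.057), while Stab1, a scavenger receptor, rose (1.18 ± 0.17). Its relative Stab2 was at the threshold (-0.32 ± 0.13, adjusted p = 0.049), was lost with 6 of the 7 mice left out (adjusted p = 0.062 to 0.15) and with RLE factors, the stricter filter or the 7 libraries alone (adjusted p = 0.055, 0.063 and 0.069), and changed sign under library totals (0.12, adjusted p = 0.44). Cd34, found on capillary endothelium and on fibroblasts and counted in the vascular and portal fibroblast lists, had 10.7, 14.8 and 12.4 CPM in advanced livers, against 1.10, 1.07, 0.986 and 1.23 CPM in control livers (3.54 ± 0.18, adjusted p = 1.6e-08). Vwf, von Willebrand factor (1.29 ± 0.16), and Emcn, endomucin (1.33 ± 0.24), rose too.

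**Figure D2:**
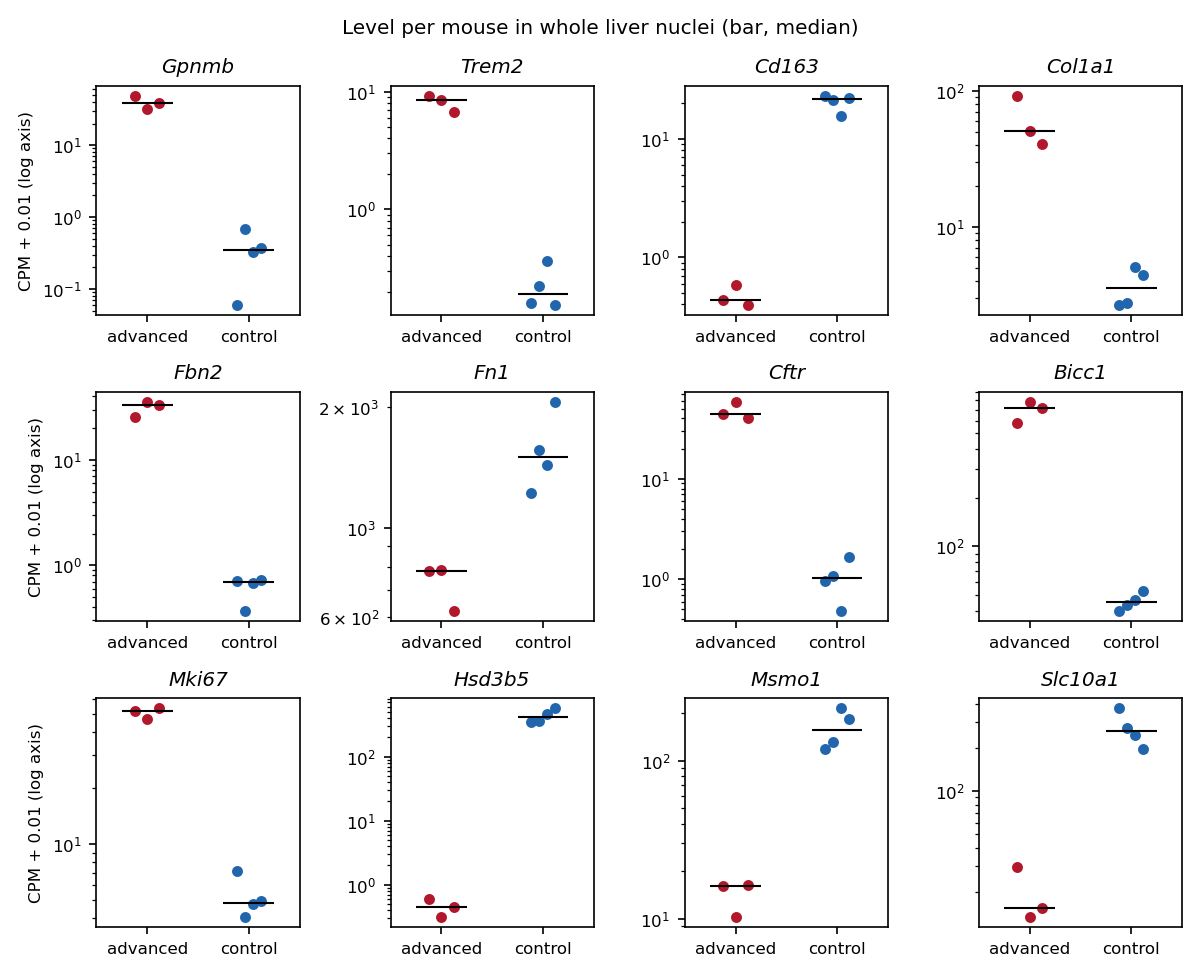
Points are the CPM of single mice on a log axis (0.01 added to each) for 12 genes, with advanced livers on the left and control livers on the right of each panel, and bars mark group medians. The groups do not overlap in any panel.

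Bile duct and progenitor genes rose. Of 13 tested cholangiocyte markers 12 rose and 0 fell. Cftr, the chloride channel of the duct epithelium (mm10 chr6:18170686-18322769), had 43.9, 57.7 and 40.6 CPM in advanced livers, against 0.951, 1.07, 0.473 and 1.66 CPM in control livers (5.57 ± 0.31, adjusted p = 2.8e-08). Bicc1, an RNA-binding protein linked to cystic kidney and liver disease, had 579, 777 and 718 CPM in advanced livers, against 39.8, 43.6, 46.4 and 52.9 CPM in control livers (3.92 ± 0.15, adjusted p = 4.2e-09). The transcription factor Glis3 did much the same (3.89 ± 0.14). Spp1, osteopontin, which is counted in the macrophage list too, also rose (3.89 ± 0.26). The duct keratins Krt19 (3.15 ± 0.30) and Krt7 (3.59 ± 0.32) rose as well. All 14 tested fetal and progenitor-associated genes rose, with a median of 3.45. Most cholangiocyte markers and all of these genes also rose in hepatocyte nuclei of the same mice, as given below. Tspan8, a tetraspanin, had 29.4, 35.4 and 36.7 CPM in advanced livers, against 1.35, 1.11, 1.34 and 1.66 CPM in control livers (4.65 ± 0.17, adjusted p = 4.2e-09). Afp, alpha-fetoprotein, the defining member of that list, rose least (0.82 ± 0.32, adjusted p = 0.045), and its groups were 1.60, 1.11 and 1.42 CPM in advanced livers, against 0.551, 1.0, 0.631 and 0.938 CPM in control livers. Its call was lost without advanced mouse 1 (0.70, adjusted p = 0.13) or 3 (0.79, adjusted p = 0.1) and without control mouse 1 (0.69, adjusted p = 0.11) or 3 (0.72, adjusted p = 0.11). In the list of YAP targets 8 of 13 rose and 2 fell (9 and 0 under library totals), with Ankrd1 (4.89 ± 0.41) highest. The rises include Tead1 and Wwtr1, which with Yap1 are factors of the pathway itself. The targets Cyr61, Amotl2 and Lats2 did not pass, and Nuak2 fell. Yap1 itself fell (-0.63 ± 0.09), a call lost under library totals (-0.20, adjusted p = 0.077). Notch and Hedgehog genes rose in 11 of 17, among them the Notch ligand Jag1 (1.75 ± 0.13) and the Hedgehog effector Gli3 (1.93 ± 0.17).

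Cell cycle genes rose in 20 of 21, with a median of 2.51. Mki67, the antigen Ki-67 of dividing cells, had 51.9, 47.0 and 53.7 CPM in advanced livers, against 7.16, 4.05, 4.73 and 4.91 CPM in control livers (3.29 ± 0.18, adjusted p = 2.5e-08). The groups were far apart, and the advanced mice lay close together. Cdkn1a, the inhibitor p21, rose as well (4.14 ± 0.33), and of 11 p53 targets and senescence inhibitors 4 rose and 1 fell (8 and 0 under library totals). The share of that list that rose, 36.4%, is near the 31.3% of all genes tested.

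Genes of hepatocyte functions fell broadly, beside the fall in summed hepatocyte markers and the rise in markers of other cells given above, whose part in these changes was not tested. Of 19 tested genes of xenobiotic metabolism 16 fell and 0 rose, with a median of -2.79. Cyp2e1, which oxidises ethanol and is also a pericentral marker, had 348, 366 and 194 CPM in advanced livers, against 2490, 2040, 2310 and 1480 CPM in control livers (-2.78 ± 0.28, adjusted p = 3.5e-06). Cyp2c54, one of several near-identical Cyp2c genes among which reads may be split, fell by 5.93 on the log2 scale. Of 20 genes of the urea cycle, gluconeogenesis and amino acid breakdown 18 fell, counting Ass1, which was read at 1.44 CPM or less in every advanced and control liver and is uncertain. Otc, ornithine transcarbamylase of the urea cycle, had 126, 96.7 and 183 CPM in advanced livers, against 778, 701, 887 and 902 CPM in control livers (-2.60 ± 0.21, adjusted p = 5.5e-07). Hal, which breaks down histidine, fell too (-3.36 ± 0.35). G6pc, which releases glucose in the fasted state, had 258, 68.3 and 190 CPM in advanced livers, against 189, 976, 102 and 2160 CPM in control livers (-2.32 ± 0.94, adjusted p = 0.054). Control mice 2 and 4 were the high ones and control mice 1 and 3 the low ones for G6pc, so its groups overlapped, and it passed without control mouse 1 (-2.65, adjusted p = 0.028) or 3 (-2.69, adjusted p = 0.014).

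Secreted and regulatory genes of hepatocytes went the same way. Of 26 complement and coagulation genes 22 fell and 0 rose, with a median of -1.32. F13b, a subunit of clotting factor XIII, had the lowest p (-2.04 ± 0.09, adjusted p = 7.9e-09). Of 20 hepatocyte transcription factors 14 fell, among them Hnf4a, a main regulator of hepatocyte genes (-1.12 ± 0.17), and the lipid receptor Ppara (-1.32 ± 0.16). Acute phase genes were 35.0% higher (7 of 20) and 40.0% lower (8 of 20), against 31.3% and 28.0% of all genes tested, and 9 were higher and 6 lower under library totals. Lcn2, lipocalin-2, rose to 6.17, 5.66 and 5.42 CPM in advanced livers, against 0.0501, 0.286, 0.237 and 0 CPM in control livers (5.06 ± 0.43), and the fibrinogen chain Fgg fell (-1.99 ± 0.38). Of 13 pericentral genes 10 fell and of 12 periportal genes 8 fell (periportal, again counting Ass1), with medians of -1.19 and -1.69. Glul, glutamine synthetase of the last hepatocytes before the central vein, had 121, 51.7 and 56.8 CPM in advanced livers, against 149, 188, 184 and 179 CPM in control livers (-1.19 ± 0.24, adjusted p = 0.0011). Advanced mouse 1 was the highest advanced mouse for Glul and still lay under every control. Circadian clock genes fell in 10 and rose in 2 of 16 (5 and 2 under library totals), and the labels used here give no time of death. Genes of the unfolded protein and integrated stress response fell in 8 and rose in 1 of 15, though 1 fell and 2 rose under library totals.

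Bile acid genes fell in 15 of 19, with a median of -1.74. Slc10a1, which takes bile acids up from blood, had 29.5, 13.3 and 15.3 CPM in advanced livers, against 374, 275, 244 and 196 CPM in control livers (-3.82 ± 0.44, adjusted p = 1.8e-05). The fall held for Slc27a5, the ligase that couples bile acids to coenzyme A (-2.62 ± 0.16), and for the export pump Abcb11 (-1.81 ± 0.32). Cyp7a1, which catalyses the first step from cholesterol to bile acids, overlapped between the groups and did not pass, with 97.9, 92.2 and 68.9 CPM in advanced livers, against 170, 130, 41.6 and 180 CPM in control livers (-0.59 ± 0.56, adjusted p = 0.39). Abcc4, an exporter in the membrane facing blood, was the only member to rise, with 91.9, 261 and 219 CPM in advanced livers, against 33.9, 33.2, 22.4 and 26.4 CPM in control livers (2.72 ± 0.28, adjusted p = 5.4e-06). Advanced mouse 1 had the least Abcc4 of the advanced mice, yet more than any control.

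All 24 genes of cholesterol synthesis and its regulation fell (23 under library totals), with a median of -2.07, and their summed level was 594 to 950 CPM in advanced livers, against 2380 to 3680 CPM in control livers. The pathway makes sterols from acetyl-CoA, and the transcription factor SREBP-2, made by Srebf2, switches its genes on when membrane cholesterol is low, together with NF-Y, which binds CCAAT boxes. Hmgcs1, the synthase that starts the mevalonate branch, had 43.9, 28.4 and 44.3 CPM in advanced livers, against 86.9, 100.0, 173 and 208 CPM in control livers (-1.87 ± 0.30, adjusted p = 0.00021). Msmo1, the sterol methyl oxidase, had 16.1, 10.3 and 16.3 CPM in advanced livers, against 119, 131, 213 and 182 CPM in control livers (-3.50 ± 0.24, adjusted p = 1.4e-07). Idi1, the isomerase that makes the prenyl building block, had 4.39, 3.13 and 3.23 CPM in advanced livers, against 19.2, 28.8, 35.5 and 48.8 CPM in control livers (-3.21 ± 0.32, adjusted p = 3e-06). Advanced mouse 2 was the lowest advanced mouse for all 3 genes, and control mice 3 and 4 lay above control mice 1 and 2 in each. Srebf2 itself changed by -0.52 ± 0.16 (adjusted p = 0.015), a call lost without advanced mouse 2 (-0.42, adjusted p = 0.071) and under library totals (-0.09, adjusted p = 0.66).

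Promoters of the first gene of the branch, Hmgcs1, and of the 2 genes with the largest falls, Msmo1 and Idi1, are printed from RefSeq (GRCm38.p6) on the gene's strand, as 300-base windows around the start: Hmgcs1 at chr13:119690101-119690400 on the plus strand, Msmo1 at chr8:64733529-64733828 on the minus strand, and Idi1 at chr13:8885356-8885655 on the plus strand. Capitals mark the sterol regulatory element core TCACNCCAC and the CCAAT box, searched on both strands, so that a CCAAT box on the other strand reads ATTGG.
Hmgcs1: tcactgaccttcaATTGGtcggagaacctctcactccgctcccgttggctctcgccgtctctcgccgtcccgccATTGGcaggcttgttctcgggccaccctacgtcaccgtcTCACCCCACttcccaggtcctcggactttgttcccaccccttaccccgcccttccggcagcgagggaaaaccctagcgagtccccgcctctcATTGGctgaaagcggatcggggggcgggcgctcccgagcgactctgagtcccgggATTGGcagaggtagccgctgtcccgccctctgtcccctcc
Msmo1: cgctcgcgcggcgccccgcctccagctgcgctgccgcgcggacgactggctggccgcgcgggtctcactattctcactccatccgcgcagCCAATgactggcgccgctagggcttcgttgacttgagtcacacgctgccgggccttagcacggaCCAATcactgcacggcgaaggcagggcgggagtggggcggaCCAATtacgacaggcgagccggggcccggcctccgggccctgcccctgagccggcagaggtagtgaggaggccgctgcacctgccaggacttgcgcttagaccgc
Idi1: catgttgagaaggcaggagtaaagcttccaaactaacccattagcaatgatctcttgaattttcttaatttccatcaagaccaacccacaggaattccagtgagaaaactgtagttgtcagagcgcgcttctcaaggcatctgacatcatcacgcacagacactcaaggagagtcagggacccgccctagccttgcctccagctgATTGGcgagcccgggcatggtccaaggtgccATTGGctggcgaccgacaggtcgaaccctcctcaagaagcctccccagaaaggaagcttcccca
The window of Hmgcs1 held 1 sterol core and 4 CCAAT boxes, that of Msmo1 held 3 CCAAT boxes and that of Idi1 held 2, and no 2 matches overlapped. Of the 24 genes 16 matched the promoter table by symbol. CCAAT was found in all 16 of them, against 41.1% of the 27025 genes in the table. The sterol core was found in 1 of the 16 (6.25%), against 1.44% of all genes. CCAAT was added to the search after the sterol core had been counted, and a match is a description of these letters and not a bound site.

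Lipid genes did not move as 1 block. Of 17 genes of fatty acid and triglyceride synthesis 3 rose and 9 fell, with a median of -0.88 (4 and 4 under library totals). Scd1, the desaturase that makes oleate, had 2060, 531 and 734 CPM in advanced livers, against 492, 360, 307 and 540 CPM in control livers (1.39 ± 0.38, adjusted p = 0.0074). Acss2, which makes acetyl-CoA from acetate, had 98.7, 32.3 and 79.0 CPM in advanced livers, against 611, 471, 707 and 413 CPM in control livers (-2.98 ± 0.34, adjusted p = 1.2e-05). Advanced mouse 2 fell inside the control range for Scd1 and was the lowest of all 7 mice for Acss2. Fasn, fatty acid synthase, had 370, 71.0 and 191 CPM in advanced livers, against 326, 512, 447 and 526 CPM in control livers (-1.10 ± 0.45, adjusted p = 0.053), and it passed without advanced mouse 1 (-1.79, adjusted p = 0.0041) and without control mouse 1 (-1.23, adjusted p = 0.049). Mlxipl, the sugar-sensing factor ChREBP, fell (-1.56 ± 0.21). Among 19 genes of fatty acid oxidation and ketogenesis 4 rose and 7 fell (7 and 3 under library totals), and Fgf21, a hormone that the liver releases under metabolic stress, rose to 5.41, 13 and 11.8 CPM in advanced livers, against 0.200, 0.859, 0.316 and 0.144 CPM in control livers (4.57 ± 0.63, adjusted p = 5.8e-05). Of 12 tested genes of the lipid droplet coat 2 rose (6 under library totals), namely Cidec, which fuses droplets (4.73 ± 0.22), and Plin4, a perilipin (2.42 ± 0.37), and Cideb fell (-1.05 ± 0.16). Among NRF2 targets and glutathione genes 8 of 14 rose and 2, Gclm and Gsta2, fell (11 and 0 under library totals). Slc7a11, the cystine importer, had the largest change of that list (6.07 ± 0.60, adjusted p = 3e-06). It had 3.08, 4.41 and 7.34 CPM in advanced livers, against 0.100, 0.107, 0 and 0.0721 CPM in control livers.

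Genes that male mouse livers express above female ones fell, with 12 of 15 lower, 0 higher and a median of -3.62. Hsd3b5, a steroid dehydrogenase (mm10 chr3:98618635-98645534) with close copies in its cluster, had the largest fall of the genes named by size, with 0.591, 0.303 and 0.444 CPM in advanced livers, against 351, 354, 464 and 565 CPM in control livers (-9.93 ± 0.71, adjusted p = 4.7e-07). Slco1a1, an organic anion transporter, had 10.4, 1.79 and 6.33 CPM in advanced livers, against 627, 864, 625 and 758 CPM in control livers (-6.87 ± 0.60, adjusted p = 2e-06). Nudt7, a peroxisomal hydrolase of coenzyme A, fell to 85.8, 96.4 and 72.7 CPM in advanced livers, against 1010, 844, 898 and 1160 CPM in control livers (-3.53 ± 0.44, adjusted p = 3e-05). All 3 genes were lower in every advanced mouse than in any control mouse. Of 10 tested female-biased genes 3 rose and 0 fell, with a median of 0.15. The 30.0% that rose are near the 31.3% of all genes tested. Cux2, a transcription factor higher in female livers, had 17.4, 73.0 and 22.6 CPM in advanced livers, against 10.7, 10.6, 11.1 and 10.5 CPM in control livers (1.82 ± 0.39, adjusted p = 0.0018), and advanced mouse 2 was far above the other advanced mice.

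By size, the 12 largest rises with at least 1 CPM in advanced livers and groups that did not overlap were Ypel4, Cnr1, Lrrc55, Vmn2r3, Mmp7, Scube3, 6030419C18Rik, Ubd, Gpnmb, Rbm24, Cacng3 and Syt14. Cnr1, the cannabinoid receptor CB1, had 1.60, 2.26 and 2.52 CPM in advanced livers and no read in any control library, and was at least 63.3-fold higher against a floor of 3 reads over the control group. Ypel4 and Lrrc55 also had no control read and were at least 66.3-fold and 40.6-fold higher. Scube3, a secreted protein, had 6.46, 14.3 and 21.3 CPM in advanced livers, against 0.0501, 0.107, 0.0789 and 0.216 CPM in control livers (7.01 ± 0.55, adjusted p = 4.4e-07). The 12 largest falls were Hsd3b5, Slco1a1, 5 major urinary protein genes (Mup12, Mup8, Mup13, Mup1 and Mup9), the sulfotransferases Sult2a8 and Sult2a7, the citrate transporter Slc13a2, Lrtm1 and Trhde. Reads of the Mup, Sult2a and Vmn2r genes may be shared among near-identical copies, so single members are uncertain. Sult2a8 had 31.8, 35.5 and 22.9 CPM in advanced livers, against 4280, 3880, 4230 and 3990 CPM in control livers (-7.09 ± 0.25, adjusted p = 4.2e-09). Trhde, which degrades thyrotropin-releasing hormone, had 3.34, 1.68 and 2.78 CPM in advanced livers, against 248, 183, 223 and 161 CPM in control livers (-6.30 ± 0.29, adjusted p = 8.8e-09). Over all 14129 genes 32.3% lay above every control mouse in all advanced mice and 29.7% lay below.

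Advanced livers were next set against the 4 mild livers of the same diet, to see which genes separated livers with and without marked fibrosis. In the same fit 13.3% of genes were higher (1881) and 8.98% were lower (1269) in advanced livers. Without advanced mouse 2 these counts were 1266 and 690. Matrix, duct and progenitor lists had most of their members higher than in mild livers, with 14 of 16 matrix glycoproteins, 10 of 15 collagens, 12 of 13 cholangiocyte markers and 12 of 14 fetal genes. Fbn2 had 25.4, 35.1 and 33.3 CPM in advanced livers, against 1.72, 2.58, 2.58 and 2.75 CPM in mild livers (3.71 ± 0.21, adjusted p = 2.6e-06). Bicc1 had 579, 777 and 718 CPM in advanced livers, against 147, 146, 148 and 195 CPM in mild livers (2.12 ± 0.14, adjusted p = 6.1e-06). For both genes the mild livers lay between the control and the advanced ones with no overlap. By contrast 1 of 21 cell cycle genes was higher in advanced than in mild livers, namely Ccnd1, cyclin D1 (1.20 ± 0.19, adjusted p = 0.00084), and of 18 interferon genes none was. Mild mouse 1 stood apart, with a summed interferon level of 1070 CPM, against 584 to 687 CPM in the other mild livers and 591 to 605 CPM in advanced livers. Without it, 2 cell cycle genes and 0 interferon genes were higher in advanced livers. Mki67 had 51.9, 47.0 and 53.7 CPM in advanced livers, against 38.4, 47.9, 37.7 and 34.8 CPM in mild livers (0.36 ± 0.17, adjusted p = 0.15), and it passed under library totals (0.51, adjusted p = 0.045).

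Kupffer cell markers went in the other direction, with 7 of 14 lower in advanced than in mild livers and 0 higher. Cd163 had 0.422, 0.573 and 0.385 CPM in advanced livers, against 28.4, 19.4, 14.5 and 8.42 CPM in mild livers (-5.26 ± 0.44, adjusted p = 1.4e-05). Cd5l, a secreted macrophage protein, had 36.5, 26.5 and 27.0 CPM in advanced livers, against 90.3, 84.3, 99.8 and 47.0 CPM in mild livers (-1.42 ± 0.26, adjusted p = 0.002), although the advanced values lay near those of controls, at 32.1, 26.2, 20.3 and 35.5 CPM. Of 12 lipid droplet genes 4 were lower in advanced than in mild livers and 0 were higher, among them Cidea, which enlarges droplets, with 0.422, 0.303 and 0.710 CPM in advanced livers, against 12.9, 3.77, 3.62 and 4.37 CPM in mild livers (-3.67 ± 0.61, adjusted p = 0.0012). Mild mouse 1 was the highest for Cd163 and Cidea. Hsd3b5 had 64.1, 19.8, 25.2 and 13 CPM in mild livers, above every advanced liver and under every control liver.

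**Figure D3:**
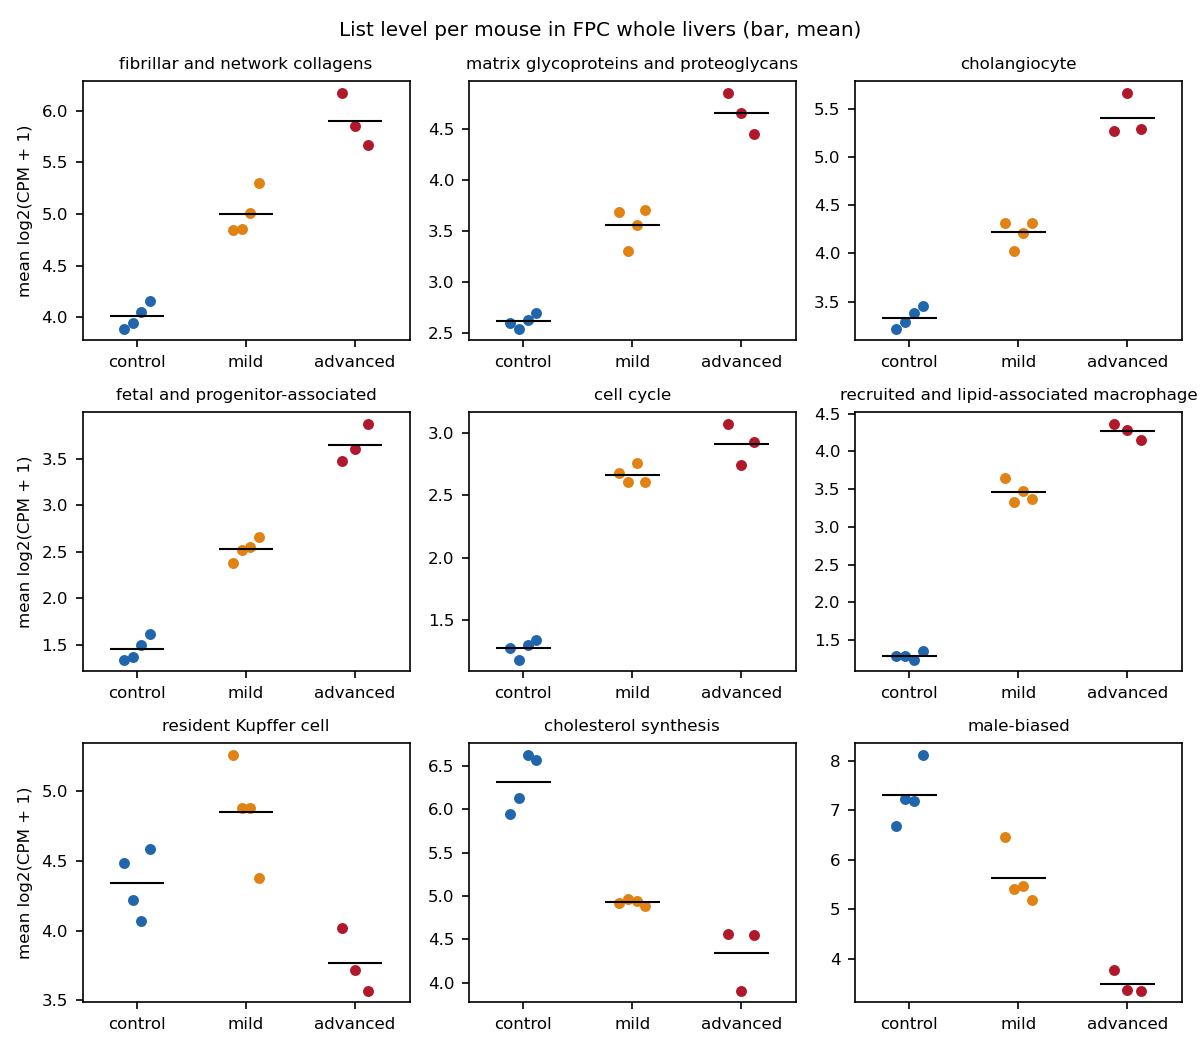
Points are single mice, with the mean of log2(CPM + 1) over the members of 9 lists on the vertical axis and the groups in stage order from control to mild to advanced on the horizontal axis; bars mark group means. Collagen, matrix glycoprotein, cholangiocyte and fetal lists step up at both stages, the cell cycle list lies near its advanced level in mild livers, and the Kupffer cell list is lowest in advanced livers.

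Hepatocyte nuclei of the same mice show which of these changes were also counted in isolated hepatocyte nuclei. In them 26.5% of 13498 genes were higher and 20.4% lower in advanced than in control mice. Hepatocyte markers fell there too, with 13 of 20 lower and a median of -0.96, and so did all 24 cholesterol genes (median -1.77). Markers of other cells were also higher in those libraries: all 15 recruited macrophage markers rose, though at low level, as for Gpnmb, at 3.06 ± 1.36 CPM in advanced and 0.0592 ± 0.0469 CPM in control hepatocyte nuclei (SD, n = 3 and n = 4). The part of such RNA from other cells in the hepatocyte values was not tested. A direct test of the difference, whole liver change minus hepatocyte change, found 0.984% of 14333 genes with a more positive change in whole liver (141) and 2.83% with a more negative one (406). With the mouse as a block, since both fractions came from the same animals, the counts were 475 (3.31%) and 876 (6.11%). Without advanced mouse 2 in both fractions the unblocked counts were 71 and 304, and without advanced mouse 1 they were 92 and 383. None of the 20 hepatocyte markers, 24 cholesterol genes or 15 male-biased genes differed between fractions without the block, and 4, 0 and 3 did with it. In hepatocyte nuclei 12 of 13 cholangiocyte markers rose (median 4.46), as did all 14 fetal genes (median 4.32). Of these, 2 cholangiocyte and 5 fetal genes had a more negative change in whole liver without the block, and 6 and 7 did with it.

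Among list genes, those with a larger rise in hepatocyte nuclei included genes known from other liver cells. Lama4, a laminin chain of vessels (mm10 chr10:38965514-39110188), averaged 123 ± 3.81 CPM in advanced and 53.3 ± 11.1 CPM in control whole livers (SD, n = 3 and n = 4). In hepatocyte nuclei it averaged 111 ± 10.3 CPM in advanced and 5.67 ± 1.0 CPM in control mice, and the difference of changes was -2.95 ± 0.22 (adjusted p = 1.6e-07). Rgs5, a pericyte gene (-3.19 ± 0.29, adjusted p = 2.3e-06), Ptpn14, a phosphatase that restrains YAP (-2.43 ± 0.26, adjusted p = 8.2e-06), Pdgfd (-2.00 ± 0.26, adjusted p = 7.4e-05) and Glis3 (-1.43 ± 0.23, adjusted p = 0.00057) followed the same pattern. In the other direction Prex1, an activator of Rac, averaged 162 ± 19.6 CPM in advanced and 72.9 ± 4.10 CPM in control whole livers but 13.5 ± 3.16 CPM in advanced and 43.7 ± 7.08 CPM in control hepatocyte nuclei (difference 2.99 ± 0.33, adjusted p = 1.1e-05). Tgfbr3, a TGF-beta co-receptor (1.91 ± 0.37, adjusted p = 0.0028), and Col15a1 (1.74 ± 0.28, adjusted p = 0.00053) also rose more in whole liver. By size the 6 most positive were Cxcl14, Nr4a3, Prex1, Gm5127, Sox7 and Kcnc2, and the 6 most negative were Gm3636, Murc, Clca3a2, Fam167a, Cbr3 and Tmem117, of which Gm3636 and Murc are listed at 0 CPM in control hepatocyte nuclei. With each mouse left out in turn, 8 of these 12 lost the call at least once, and Prex1, Sox7, Fam167a and Tmem117 held it each time. Cxcl14 and Gm3636 lost it with each of the 7 mice left out, and Murc with 6.

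**Figure D4:**
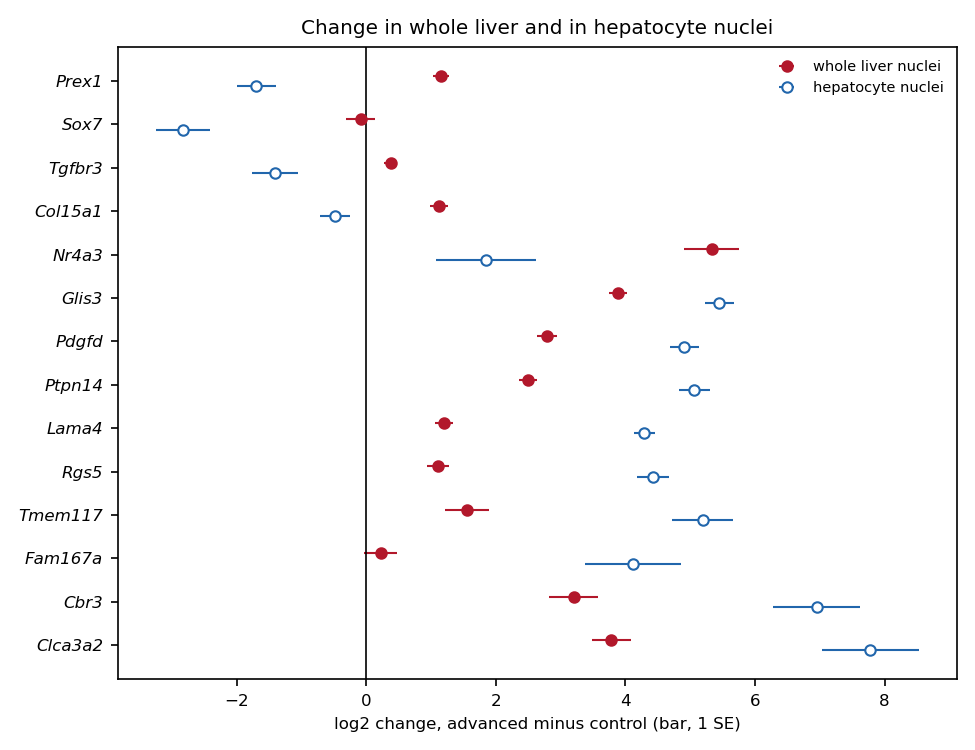
Filled points are the log2 change, advanced minus control, in whole liver nuclei and open points that in hepatocyte nuclei of the same mice, with bars of 1 SE, for 14 genes whose changes differ at an adjusted p under 0.05. Lama4 and Rgs5 rise more in hepatocyte nuclei, and Prex1 and Tgfbr3 rise in whole liver while they fall in hepatocyte nuclei.

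The CDAHFD study gave a second set of advanced and control livers, from other mice, with 29.7% of 14098 genes higher and 25.9% lower in advanced livers. Of the genes higher in FPC advanced livers 77.4% were also higher with CDAHFD, which is 81.7% of those higher with CDAHFD, and 26 were lower. Of the genes lower in FPC advanced livers 71.5% were also lower with CDAHFD, which is 77.4% of those lower with CDAHFD, and 15 were higher. Diet, duration and cohort differ together between the studies and cannot be told apart. In the direct test, FPC change minus CDAHFD change, 2.97% of 14413 genes were more positive with FPC (428) and 1.70% were more negative (245). These counts were 237 and 161 without CDAHFD advanced mouse 1, and 285 and 175 without CDAHFD advanced mouse 2. They were 283 and 163 without FPC advanced mouse 3, and 329 and 158 without FPC advanced mouse 1.

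Lipid synthesis and cholesterol genes were among those that differed by diet study. Scd1 averaged 1110 ± 832 CPM in FPC advanced and 425 ± 109 CPM in FPC control livers (SD, n = 3 and n = 4). In the CDAHFD study it averaged 17.0 ± 4.82 CPM in advanced and 338 ± 287 CPM in control livers, and the difference was 5.71 ± 0.73 (adjusted p = 0.00048). Pnpla3, a lipid droplet hydrolase, went the same way (4.93 ± 0.87, adjusted p = 0.0035). Of the 24 cholesterol genes 7 fell more with FPC and 0 fell less, with Msmo1 farthest apart (-2.74 ± 0.46, adjusted p = 0.0024). Msmo1 averaged 14.2 ± 3.43 CPM in FPC advanced and 161 ± 44.2 CPM in FPC control livers, and 23.5 ± 3.41 CPM in CDAHFD advanced and 39.3 ± 18.4 CPM in CDAHFD control livers. Macrophage genes split: Mmp12 (-3.93 ± 0.57, adjusted p = 0.00086), Gpnmb (-2.80 ± 0.50, adjusted p = 0.0032) and Atp6v0d2 (-3.36 ± 0.43, adjusted p = 0.00047) rose less with FPC, and Cx3cr1 rose more (2.16 ± 0.32, adjusted p = 0.00086). Matrix genes leaned to FPC, as 8 of 16 matrix glycoproteins and 4 of 15 collagens had a more positive change and 0 a more negative one. Bgn, the proteoglycan biglycan (2.56 ± 0.38, adjusted p = 0.00093), and Itgb6 (3.01 ± 0.52, adjusted p = 0.0024) were examples. By size the 6 most positive were Scd1, Scd3, Wif1, Pnpla3, Thrsp and Slc1a1 and the 6 most negative were Gm3776, Gsta1, Gsta2, Stac2, Mmp12 and Gm10639, where reads of the Scd and Gsta-like genes may be shared among close copies. The call of Thrsp was lost with 12 of the 14 mice left out in turn (adjusted p = 0.054 to 0.13), that of Slc1a1 with 4 (adjusted p = 0.051 to 0.068), and that of Wif1 without FPC advanced mouse 3 (adjusted p = 0.093).

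**Figure D5:**
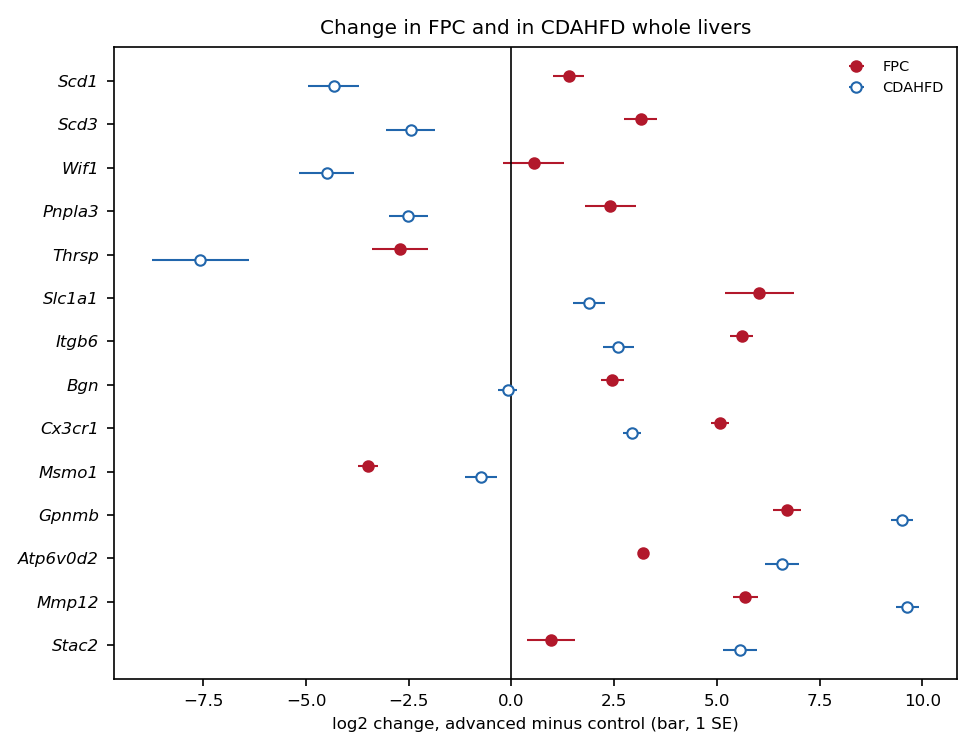
Filled points are the log2 change, advanced minus control, in FPC whole livers and open points that in CDAHFD whole livers, with bars of 1 SE, for 14 genes whose changes differ at an adjusted p under 0.05. Scd1 and Pnpla3 are higher with FPC and lower with CDAHFD, Mmp12 and Gpnmb rise in both and more with CDAHFD, and Msmo1 falls with FPC.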

How the data were processed

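Whole liver and hepatocyte nuclei were taken from the same mice and total nuclear RNA was sequenced as 50 bp read pairs with a stranded kit, per the labels' protocols. The authors deposited whole-number read counts per gene for 20105 identifiers, and the submitters' processing notes name mm10 as the build, with STAR 2.4.2a and DESeq2 1.24.0 as tools. The strand setting of the counting is not given in the sources used here, so reads of overlapping and antisense genes cannot be told apart. The authors' deposited table of hepatocyte log2 fold changes and adjusted p-values was used only for gene symbols, lengths and coordinates (13147 identifiers). A further 6879 symbols came from RefSeq (GRCm38.p6), and 79 identifiers had none.

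Counts were tested with edgeR 4.0.16 (R 4.3.3, TMM scaling, filterByExpr by group, robust quasi-likelihood fit) over the 3 stages of a fraction, and p-values were adjusted by Benjamini-Hochberg over every gene in the fit, with calls at 0.05. Differences between fractions and between diets were interaction contrasts. Same-numbered libraries of the 2 fractions come from the same mouse, and deviations from the group means correlated at 0.335 to 0.703 over 14333 genes for the 11 FPC mice, so the block by mouse is also given for that contrast. Alternatives were RLE factors, library totals, no filter, a filter of 1 CPM in 3 libraries, DESeq2 1.42.0, the 7 libraries alone, and each mouse left out. Groups with at most 3 counts are given as a ratio with an exact 95% interval or against a floor of 3 counts; these cover counting error only. Each library is 1 mouse, and p-values within a fraction measure the spread between mice. In the unblocked contrast between fractions the 2 libraries of a mouse were fitted as if independent. Unless the block is named, p-values for single genes of that contrast are from the unblocked fit.

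The libraries of the comparison were taken by their labels. The 35 pathway and 12 marker lists (699 of 702 genes measured) were chosen with earlier results of these data known. Genes were named as the 12 largest changes each way with groups apart and at least 1 CPM, and from each list as up to 4 members with the lowest p, the most abundant and the defining ones. Genes named for mouse-to-mouse variation or for a contrast with the mild, hepatocyte or CDAHFD libraries were picked after their values were seen, beyond the 6 largest each way. The scripts were tested on simulated counts. Results for some single genes of the lists are not reported here.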

Additional observations from a re-analysis of the deposited data

Results flagged for a closer look

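In groups of 4 mice, 135 sets of values with more than 3 control reads were checked for a mouse far from the other 3 by Dixon's ratio, and 7 were found, where chance gives about 1 in 20. Control mouse 4 stood high for Ankrd1 at 0.938 CPM and for Mmp12 at 0.433 CPM. Control mouse 2 stood low for Fbn2 at 0.358 CPM, and control mouse 3 stood high for Slc27a5 at 144 CPM. Among mild livers, mouse 4 was high for Bicc1 at 195 CPM, and mouse 1 was high for Cidea at 12.9 CPM and low for Fbn2 at 1.72 CPM.

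Changes that differed between whole liver and hepatocyte nuclei by the interaction test were more positive in whole liver for Cxcl14 (4.48), Nr4a3 (3.57), Prex1 (2.99), Gm5127 (2.89), Sox7 (2.87), Kcnc2 (2.84), Tgfbr3 (1.91) and Col15a1 (1.74). They were more negative for Gm3636 (-5.20), Murc (-4.92), Clca3a2 (-3.89), Fam167a (-3.76), Cbr3 (-3.65), Tmem117 (-3.51), Rgs5 (-3.19), Lama4 (-2.95), Ptpn14 (-2.43), Pdgfd (-2.00) and Glis3 (-1.43). Values are differences of log2 changes, from edgeR's quasi-likelihood test. Several of these calls were lost in other settings, as given with the results for hepatocyte nuclei and below.

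Changes that differed between the diet studies were more positive with FPC for Scd1 (5.71), Scd3 (5.61), Wif1 (5.03), Pnpla3 (4.93), Thrsp (4.85), Slc1a1 (4.15), Itgb6 (3.01), Bgn (2.56) and Cx3cr1 (2.16). They were more negative for Gm3776 and Gsta1 (-5.24 each), Gsta2 and Stac2 (-4.58 each), Mmp12 (-3.93), Gm10639 (-3.78), Atp6v0d2 (-3.36), Gpnmb (-2.80) and Msmo1 (-2.74).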

How the results depend on the processing

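Library totals alone gave 7267 higher and 1532 lower genes against control, 670 lower genes against mild, and 7329 higher and 1508 lower genes with CDAHFD. DESeq2 gave 706 more positive and 377 more negative genes for the difference between diets. With the mouse as a replicate block, the difference between fractions gave 475 more positive and 876 more negative genes, and of the genes named for it Gm5127 lost the call (2.90, adjusted p = 0.051). Gm3636 and Murc lost that call under library totals, without a filter and with the stricter filter (adjusted p = 0.051 to 0.057). Nr4a3 lost it with RLE factors (3.50, adjusted p = 0.051). With each mouse left out in turn, the counts were 4010 to 4329 higher and 3369 to 3796 lower against control and 1266 to 2146 higher and 690 to 1584 lower against mild. They were 71 to 123 and 290 to 383 for the difference between fractions, and 237 to 528 and 158 to 248 for the difference between diets. Of the values for genes named against control, 1736 kept direction and side of the threshold, 23 fell short of it, 12 newly passed and 4 changed sign. The 4 were Stab2 under library totals (0.12), Marco, at -1.11 to 0.31, and Cd5l, at -0.09 to 0.19, with each mouse left out (Marco without control mouse 1, Cd5l without advanced mouse 1 or control mouse 3), and of these only Stab2 was a call. The cause was not tested. Genes under a few counts per library are limited by depth, at totals of 14278783 to 33063251 counts in FPC whole liver libraries.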
